A study of Mus musculus with 18 samples.

Results

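The interleukin-2 (IL-2) receptor and its relatives were followed in Tregs, the regulatory T cells that carry Foxp3 and hold immune responses in check. The set holds 8 of the 46078 genes in the deposited count tables, taken by name: Il2ra, Il2rb, Il2rg, Il7r, Il4ra, Il15ra, Il21r and Il9r. Their products are the chains that bind IL-2, IL-4, IL-7, IL-9, IL-15 and IL-21, and all 8 passed the filter on low counts in every comparison.

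These receptors share the common gamma chain, encoded by Il2rg, and each adds a chain of its own that sets which cytokine binds. The IL-2 receptor of Tregs joins Il2ra (CD25), which raises affinity for IL-2 but does not signal, to the signalling chains Il2rb and Il2rg, and Il15ra plays the part of Il2ra for IL-15. Bound receptors signal through the kinases Jak1 and Jak3 to STAT proteins, mainly STAT5 for IL-2, IL-7, IL-9 and IL-15, STAT6 for IL-4 and STAT3 for IL-21. Tregs make little IL-2 themselves and need IL-2 from other T cells to persist.

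Tregs were sorted by flow cytometry from male Foxp3(DTR/GFP) mice aged 10 weeks, whose Foxp3 locus drives a green fluorescent protein and the diphtheria toxin receptor, and their RNA was sequenced in bulk. The injured groups were taken at day 7 and had 3 libraries each, every one pooled from 3 mice: bone after a cranial defect, muscle after volumetric loss of quadriceps, skin after full-thickness punch wounds, and heart after an infarct made by ligating the left coronary artery. Uninjured spleen Tregs of the same strain, sex and age gave 6 libraries. The samples include neither uninjured tissue other than spleen nor spleen of injured mice, so effects of injury and of tissue cannot be told apart. In bulk RNA, fewer cells of a type and less RNA per cell cannot be told apart either.

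The promoters of Il2ra, Il7r and Il9r are shown first, because these are the 3 receptor genes that were higher in all 4 injured tissues under every alternative tried. Each is the RefSeq window of 300 bases on GRCm38.p6, from 250 bases before the annotated start to 50 after it, read 5′ to 3′ on the strand of the gene. Il2ra lies at chr2:11642542-11642841 on the plus strand, Il7r at chr15:9529827-9530126 on the minus strand and Il9r at chr11:32200230-32200529 on the minus strand. The whole Il7r window lies inside the span that the GENCODE annotation gives that gene (9505788 to 9530176), which starts further upstream than RefSeq does. Capitals mark matches, on either strand, to TTCNNNGAA (the STAT motif), TGANTCA (the AP-1 motif) or TGTGGT (the RUNX motif).
Il2ra: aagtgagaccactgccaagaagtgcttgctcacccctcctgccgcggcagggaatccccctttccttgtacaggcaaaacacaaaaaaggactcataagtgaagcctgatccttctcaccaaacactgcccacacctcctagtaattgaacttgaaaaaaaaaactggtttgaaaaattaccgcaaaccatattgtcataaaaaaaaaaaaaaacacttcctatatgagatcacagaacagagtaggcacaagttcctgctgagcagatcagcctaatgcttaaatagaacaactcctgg
Il7r: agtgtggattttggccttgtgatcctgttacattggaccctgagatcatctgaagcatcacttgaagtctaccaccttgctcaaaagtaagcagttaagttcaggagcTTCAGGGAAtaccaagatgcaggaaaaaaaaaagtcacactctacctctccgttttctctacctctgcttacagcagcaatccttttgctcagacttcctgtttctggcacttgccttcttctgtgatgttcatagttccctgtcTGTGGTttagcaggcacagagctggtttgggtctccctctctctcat
Il9r: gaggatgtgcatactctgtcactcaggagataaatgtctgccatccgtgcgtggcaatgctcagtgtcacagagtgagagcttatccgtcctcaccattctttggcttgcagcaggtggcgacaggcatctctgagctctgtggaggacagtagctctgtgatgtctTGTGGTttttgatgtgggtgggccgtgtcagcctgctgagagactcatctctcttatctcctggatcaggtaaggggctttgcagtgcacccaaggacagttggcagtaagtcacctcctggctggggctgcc
The Il7r window held 1 STAT match and 1 RUNX match, the Il9r window 1 RUNX match and the Il2ra window no match to the 3 motifs. Of all 32851 RefSeq promoter windows of this length, 8.3% held the STAT motif, 7.81% the AP-1 motif and 16.8% the RUNX motif. A match describes letters only, and no match says only that these letters are not in the window. RefSeq windows were found for 7 of the 8 genes, the exception being Il2rb.

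Total counts ran from 5970346 to 22635760 per library. Spleen 1 and 2 had the lowest totals (6800059 and 5970346) and the lowest protein-coding shares of counts (59.1% and 62.7%). Library names came in 2 styles, here called Endo (spleen 1 to 3, all skin, heart 1) and Tregs (all others), and the test adjusts for this style as a probable batch. Bone and muscle folds therefore lean on spleen 4 to 6 and skin folds on spleen 1 to 3, while levels are CPM (counts scaled to the TMM library size) without that adjustment. Bone libraries are called 1, b and c because the labels do not say which replicate the columns of b and c belong to. Foxp3 stood at 586 to 837 CPM in the injured-tissue libraries and at 343 to 444 CPM in spleen. Cd4, the coreceptor of the sorted lineage, stood at 489 to 774 CPM in injured tissues and at 453 to 700 CPM in spleen.

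The first question was which receptor chains differed between Tregs of each injured tissue and spleen Tregs. Il2ra, Il2rg, Il7r and Il9r were higher in all 4 tissues, Il4ra in bone, muscle and heart, Il21r in muscle and Il15ra in heart. Il2rb passed in none. By the quasi-likelihood test of edgeR, adjusted after Benjamini and Hochberg (FDR 0.05), 5 of the 8 passed as higher in bone Tregs, 6 in muscle, 4 in skin and 6 in heart, and none passed as lower. Over all genes tested, 8.48% passed as higher in bone Tregs, 14.2% in muscle, 15% in skin and 11.8% in heart. As lower, 6.32%, 11.3%, 12.8% and 8.46% passed in that order. The median log2 fold change of the 8 genes was 0.43 in bone Tregs, 0.67 in muscle, 0.44 in skin and 0.77 in heart, against 0.01, -0.01, -0.065 and -0.03 over all genes in the same order. The 4 comparisons share the spleen libraries, so they are not independent of one another.

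**Figure D1:**
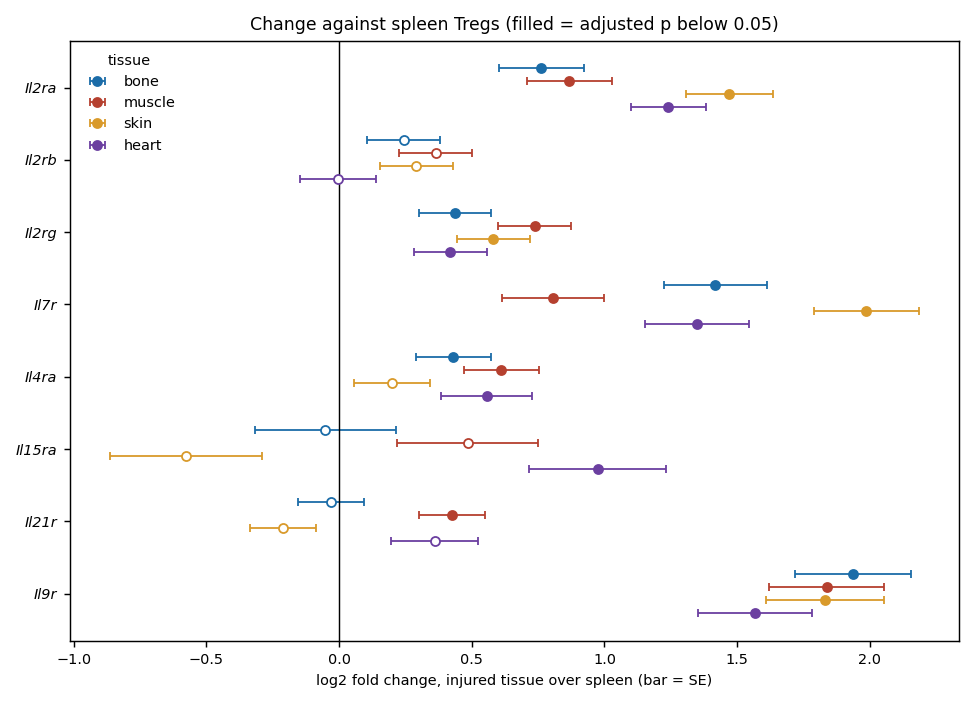
Log2 fold change of each receptor gene in injured tissue over spleen, with bars for the SE of the fit (3 libraries per tissue, 6 of spleen). Il9r, Il7r and Il2ra lie right of 0 in all 4 tissues, Il9r between 1.57 and 1.94, while Il2rb lies between -0.01 and 0.36 with open symbols throughout.

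Il2ra (ENSMUSG00000026770, chromosome 2, 11642807 to 11693193, plus strand, GRCm38), the high-affinity chain CD25, was higher in all 4 injured tissues. It stood at 1162, 961 and 928 CPM in bone, 832, 1402 and 1041 CPM in muscle, 1521, 1874 and 1725 CPM in skin and 1323, 1718 and 1237 CPM in heart. In spleen its lowest, median and highest values were 575, 599 and 631 CPM. Each injured-tissue library was thus above each spleen library, and spleen libraries of both naming styles sat close together (606 ± 29 CPM in Endo and 591 ± 16 in Tregs style, SD, n = 3 each). The log2 fold changes were 0.76 ± 0.16 in bone Tregs, 0.87 ± 0.16 in muscle, 1.47 ± 0.16 in skin and 1.24 ± 0.14 in heart (SE), with adjusted p of 0.0017, 0.00028, 2.7e-07 and 3.3e-05 in that order by edgeR's quasi-likelihood test. All 4 calls held under every alternative.

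Gm37881, a short unclassified transcript inside an intron of Il2ra on the same strand, was also counted. It had 16.2 ± 1.8 CPM in bone Tregs, 24.0 ± 1.4 in muscle, 22.4 ± 2.0 in skin and 21.6 ± 9.0 in heart (SD, n = 3 each), and 9.4 ± 4.4 CPM in spleen (n = 6). It overlaps 421 bases of the Il2ra span and none of its exons.

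Il2rb (ENSMUSG00000068227, chromosome 15, 78479256 to 78495271, minus strand), the signalling chain shared by the IL-2 and IL-15 receptors, passed in no tissue. It stood at 746, 656 and 758 CPM in bone, 699, 813 and 831 CPM in muscle, 963, 921 and 813 CPM in skin and 764, 616 and 543 CPM in heart. In spleen its lowest, median and highest values were 562, 617 and 808 CPM, and only the skin libraries lay wholly above that range. Log2 fold changes were 0.24 ± 0.14 in bone Tregs, 0.36 ± 0.14 in muscle, 0.29 ± 0.14 in skin and -0.01 ± 0.14 in heart (SE), with adjusted p of 0.27, 0.055, 0.12 and 0.98 by the same edgeR test. Spleen 1 and 2 (808 and 774 CPM) stood above spleen 3 of the same Endo style (588 CPM). Spleen 3 lay within the range of the Tregs-style spleen libraries (562 to 621 CPM). By style the spleen means were 723 ± 119 CPM in Endo and 599 ± 32 CPM in Tregs style (SD, n = 3 each). Muscle passed with DESeq2 (adjusted p = 0.032), limma-voom (0.047), all 18 libraries in one fit (0.033), without muscle 1 (0.024), spleen 1 (just under 0.05) or spleen 3 (0.018), and without spleen 1 and 2 together (0.021). Skin passed without the style term (0.018) and without spleen 1 and 2 together (0.014).

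Il2rg (ENSMUSG00000031304, chromosome X, 101264378 to 101268255, minus strand), the common gamma chain, rose in all 4 tissues by less than Il2ra. It had 466, 389 and 402 CPM in bone, 435, 589 and 520 CPM in muscle, 521, 574 and 567 CPM in skin and 493, 458 and 360 CPM in heart, against a lowest, median and highest value of 286, 316 and 398 CPM in spleen. Muscle and skin libraries lay above all spleen libraries, while bone and heart overlapped spleen. The log2 fold changes were 0.44 ± 0.14 in bone (adjusted p = 0.033), 0.74 ± 0.14 in muscle (0.00031), 0.58 ± 0.14 in skin (0.0026) and 0.42 ± 0.14 in heart (0.046), by edgeR's quasi-likelihood test. The skin call held under every alternative, and the muscle call whichever 1 library was left out. The bone call was lost without bone 1 (adjusted p = 0.16), bone c (0.055), spleen 4 (0.098), spleen 5 (0.06) or spleen 6 (0.053), and without the style term (0.13). The heart call was lost without heart 1 (0.11), heart 2 (0.19) or any 1 of the 6 spleen libraries (0.055 to 0.096), without the style term (0.11), with no filter on low counts (0.092) and with Tregs-style libraries alone (0.086). A second annotated gene, Gm20489, covers 728 of the 2387 exon bases of Il2rg and had 0 counts in every library, so reads that fit both may be missing from Il2rg if the counting dropped them.

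**Figure D2:**
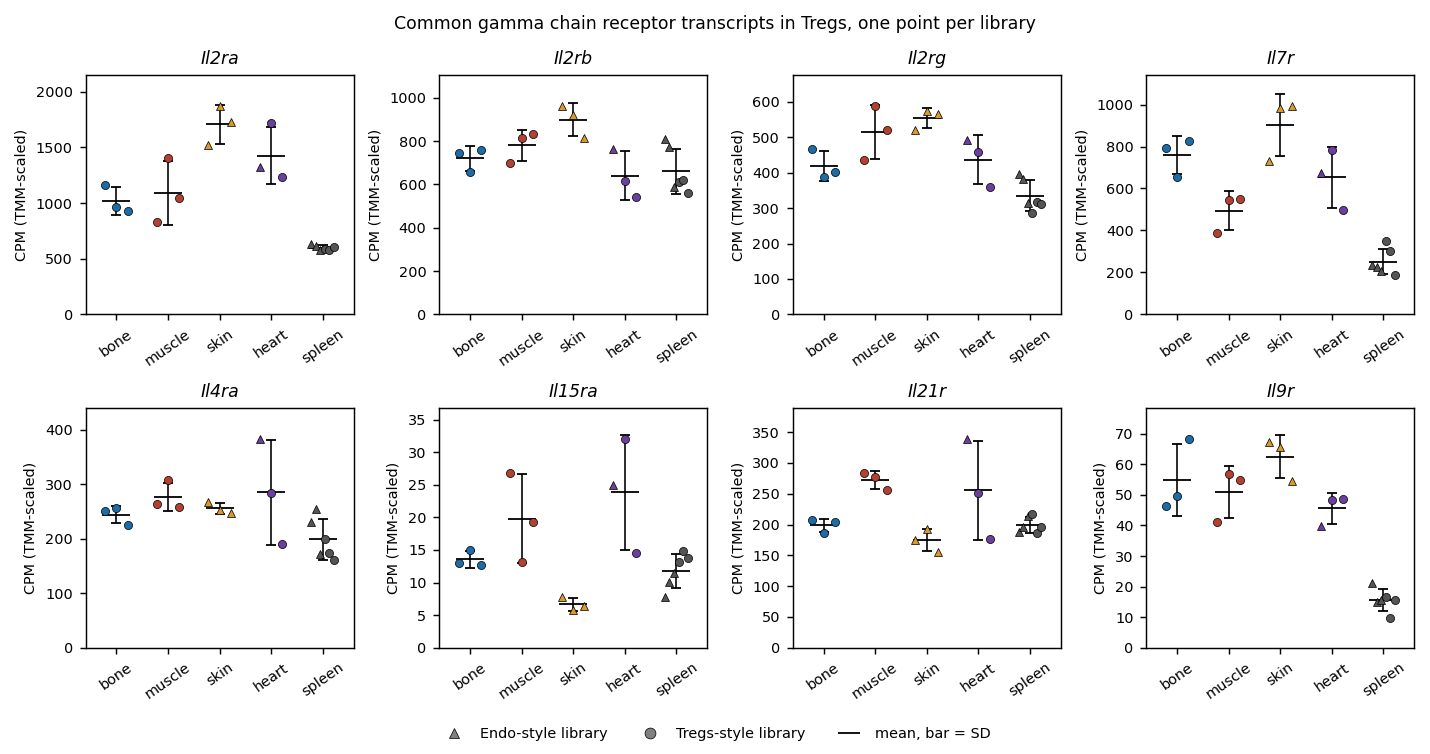
CPM of the 8 receptor genes in each library, with the group mean and SD and the naming style as the symbol. The Il2ra, Il7r and Il9r points of bone, muscle, skin and heart lie above all 6 spleen points, and the Il15ra points of skin (5.87 to 7.75 CPM) lie below them.

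The balance of chains was then taken within each library, as a ratio of counts of 2 genes that does not depend on scaling between libraries. The Il2ra to Il2rb ratio was higher in every injured tissue than in spleen, by 1.54-fold in bone Tregs, 1.5 times in muscle, 2.08 times in skin and 2.43 times in heart. Per exon length, the ratio was 1.17, 1.1 and 0.919 in bone, 0.893, 1.3 and 0.941 in muscle, 1.19, 1.53 and 1.59 in skin and 1.3, 2.09 and 1.71 in heart, against 0.587 to 0.811 in spleen. No injured-tissue library overlapped spleen. Each of the 4 differences had an adjusted p of 0.048 by a two-sided exact permutation test over libraries (3 against 6, unadjusted p = 0.024, the smallest this design allows), with 16 ratio tests adjusted together. Against spleen libraries of the same style the difference in log2 ratio was 0.51 in bone Tregs, 0.47 in muscle, 1.17 in skin and 1.35 in heart, a comparison of 3 against 3, or 2 against 3 for heart, too small to pass. Leaving out any 1 library also leaves too few for a ratio to pass after adjustment, and ended each ratio call given here.

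The other ratios moved in fewer tissues. Il2rb to Il2rg, the ratio of the signalling chains, was 1.29-fold lower in muscle and 1.34-fold lower in heart than in spleen (exact permutation test, adjusted p = 0.048 each). In bone it was 1.14-fold lower (adjusted p = 0.11) and in skin 1.22-fold lower (0.085), and both overlapped spleen. Il7r to Il2ra was 1.81-fold higher in bone (adjusted p = 0.048, exact permutation test) and did not pass in muscle (1.11-fold, 0.57), skin (1.28-fold, 0.28) or heart (1.11-fold, 0.58). Il4ra to Il2rg was 1.28-fold lower in skin (adjusted p = 0.048, exact permutation test), with 0.9 in bone, 0.44 in muscle and 0.57 in heart.

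**Figure D3:**
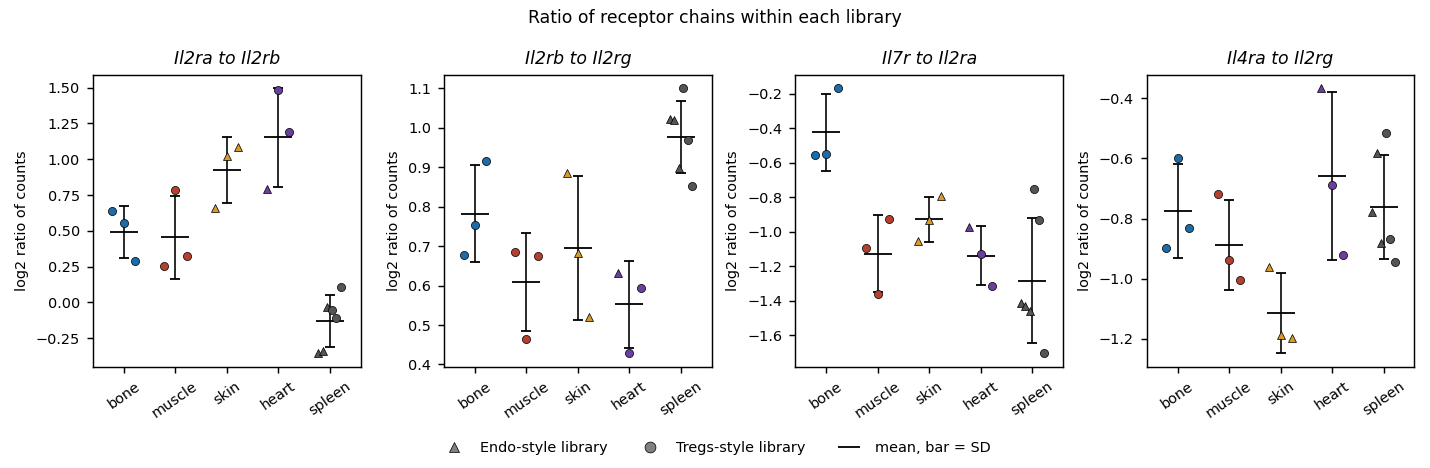
Log2 ratio of counts of 2 receptor chains in each library, with group mean and SD. In the first panel (Il2ra to Il2rb) the 12 injured-tissue points run from 0.25 to 1.48 and the 6 spleen points from -0.36 to 0.11.

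Il7r (ENSMUSG00000003882, chromosome 15, 9505788 to 9530176, minus strand), the IL-7 receptor chain that is low on the surface of many Tregs and also forms part of the receptor for TSLP, was higher in all 4 tissues. It stood at 791, 656 and 827 CPM in bone, 390, 546 and 549 CPM in muscle, 732, 984 and 994 CPM in skin and 675, 785 and 498 CPM in heart. In spleen its lowest, median and highest values were 186, 232 and 351 CPM, below every injured-tissue library. Spleen 4 (351 CPM) and spleen 5 (301 CPM) were the highest of the spleen libraries and muscle 1 (390 CPM) the lowest of the injured-tissue libraries. The log2 fold changes were 1.42 ± 0.19 in bone Tregs, 0.81 ± 0.19 in muscle, 1.99 ± 0.20 in skin and 1.35 ± 0.20 in heart (SE), with adjusted p of 1.5e-05, 0.0032, 7.2e-08 and 0.00024 by edgeR's quasi-likelihood test, and all 4 calls held under every alternative. Crlf2, the chain that pairs with Il7r to bind TSLP, was higher in skin (log2 fold change 1.38 ± 0.20, adjusted p = 1.2e-05) and muscle (0.60 ± 0.20, 0.026). Crlf2 averaged 31.7 CPM in bone Tregs, 36.7 in muscle, 61.8 in skin and 33.5 in heart, against 23.7 CPM in spleen, and did not pass in bone (adjusted p = 0.21) or heart (0.083).

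Il9r (ENSMUSG00000020279, chromosome 11, 32187541 to 32200279, minus strand), the receptor chain for IL-9, a cytokine best known for its effects on mast cells, was higher in all 4 tissues, by 2.96-fold to 3.83-fold. It stood at 46.5, 49.8 and 68.2 CPM in bone, 41.2, 56.8 and 54.8 CPM in muscle, 67.4, 65.7 and 54.4 CPM in skin and 39.8, 48.5 and 48.7 CPM in heart. The lowest, median and highest spleen values were 9.81, 15.7 and 21.3 CPM, again with no overlap. The log2 fold changes were 1.94 ± 0.22 in bone Tregs, 1.84 ± 0.22 in muscle, 1.83 ± 0.22 in skin and 1.57 ± 0.22 in heart, with adjusted p of 1.1e-06, 1e-06, 1.1e-06 and 0.00016 by edgeR's quasi-likelihood test. These calls too held under every alternative. Of the 6 mast cell markers examined, Kit rose in all 4 tissues, to means of 12.8 CPM in bone Tregs, 11.1 in muscle, 19.6 in skin and 11 in heart, against 1.37 CPM in spleen. The defining markers Fcer1a, Ms4a2 and Mcpt4 had 0 counts in all 18 libraries, and Cpa3 and Cma1 did not exceed 0.827 CPM in any. A count of 0 in a library allows up to 0.12 to 0.519 CPM (3 counts, counting error only).

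Il4ra (ENSMUSG00000030748, chromosome 7, 125552120 to 125579474, plus strand), the chain that binds IL-4 and, with Il13ra1, IL-13, rose in bone, muscle and heart. It stood at 250, 257 and 226 CPM in bone, 264, 307 and 259 CPM in muscle, 268, 252 and 247 CPM in skin and 383, 284 and 190 CPM in heart. In spleen the lowest, median and highest values were 162, 187 and 255 CPM, so that muscle alone lay above all spleen libraries, and heart spanned more than spleen did. The log2 fold changes were 0.43 ± 0.14 in bone (adjusted p = 0.043), 0.61 ± 0.14 in muscle (0.0025), 0.20 ± 0.14 in skin (0.33) and 0.56 ± 0.17 in heart (0.035), by edgeR's quasi-likelihood test. The bone call was lost without any 1 bone library (0.051 to 0.13), without muscle 3 (0.05), skin 2 (0.058), spleen 5 (0.11) or spleen 6 (0.13), and under 3 other settings (0.055 to 0.19). The heart call was lost without heart 1 (0.21), heart 2 (0.16), spleen 1 (0.053), spleen 5 (0.068) or spleen 6 (0.071), without the style term (0.098), and with Tregs-style libraries alone (0.18). The muscle call held whichever 1 library was left out. Il4ra passed in skin without spleen 1 and 2 (0.022).

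Il21r (ENSMUSG00000030745, chromosome 7, 125603429 to 125633570, plus strand), the receptor chain for IL-21, starts 24.0 kb beyond the end of Il4ra and was higher in muscle. It stood at 284, 277 and 255 CPM in muscle, against a lowest, median and highest value of 187, 196 and 217 CPM in spleen, with no overlap (log2 fold change 0.43 ± 0.12, adjusted p = 0.013 by edgeR's quasi-likelihood test). Among the libraries left out in turn, spleen 5 ended the call (0.053). Bone had 207, 186 and 203 CPM (log2 fold change -0.03 ± 0.12, adjusted p = 0.91) and skin 175, 193 and 156 CPM (-0.21 ± 0.13, 0.22). Heart had 338, 250 and 177 CPM (0.36 ± 0.16, 0.14), a spread in which heart 1 was the highest and heart 3 the lowest library, as for Il4ra. Without heart 3, Il21r passed in heart (0.02).

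Il15ra (ENSMUSG00000023206, chromosome 2, 11705290 to 11734317, plus strand), which presents IL-15 to the Il2rb and Il2rg chains, starts 12.1 kb beyond the end of Il2ra and was among the lowest members per length. It stood at 13, 15.1 and 12.7 CPM in bone, 26.8, 13.2 and 19.3 CPM in muscle, 7.75, 5.87 and 6.37 CPM in skin and 25.0, 32.0 and 14.5 CPM in heart. The lowest, median and highest spleen values were 7.77, 12.3 and 14.8 CPM, with 9.77 ± 1.9 CPM in Endo-style and 13.9 ± 0.88 CPM in Tregs-style spleen libraries (SD, n = 3 each). Skin lay below all spleen libraries but did not pass (log2 fold change -0.58 ± 0.29, adjusted p = 0.14), and passed as lower only without the style term (0.016). Heart passed as higher (0.97 ± 0.26, adjusted p = 0.015, edgeR's quasi-likelihood test), although heart 3 fell within the spleen range. That call was lost without heart 1 (0.15) or heart 2 (0.12), with limma-voom (0.082), with Tregs-style libraries alone (0.18) and without spleen 1 and 2 together (0.052). Bone (-0.05 ± 0.27, 0.93) and muscle (0.49 ± 0.27, 0.2) did not pass, and muscle passed without the style term (0.032).

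Summed levels of marker genes of other cell types differed between libraries. Summed over 6 B cell markers, levels were 44.5 to 70.2 CPM for bone, 5.8 to 11 for muscle, 10.7 to 13.1 for skin and 17.7 to 49.9 for heart, against 38.9 to 109 CPM in spleen, and all 6 fell in muscle and skin. Summed over 7 markers of CD8 T and natural killer cells, levels were 41.8 to 47.1 CPM for bone, 73.6 to 107 for muscle, 44.7 to 56.6 for skin and 42.2 to 56.9 for heart, against 38.2 to 55.7 CPM for spleen. Nkg7 was the 1 marker of these 7 that passed, as higher, in muscle (63.6 CPM, against 14 CPM in spleen, on average) and in heart. Lower means in muscle than in spleen were those of Cd8a (3.82 against 6.11 CPM), Eomes (2.98 against 4.22) and Klrb1c (0.807 against 2.42). Higher means in muscle were those of Cd8b1 (20.4 against 18.6 CPM), Klrd1 (2.84 against 1.74) and Ncr1 (0.364 against 0.127). Summed over 5 dendritic cell markers, levels were 22.9 to 44.6 CPM for bone, 31.3 to 60.4 for muscle, 32.8 to 51.2 for skin and 17.1 to 33.9 for heart, against 2.98 to 15.8 CPM in spleen. Zbtb46 was higher in all 4 tissues (means of 11.2 to 26.1 CPM, against 2.23 CPM in spleen). Of the 5, 1 passed as higher in bone and 2 in each other tissue. In heart the means of Flt3 (1.59 against 3.07 CPM in spleen) and Clec9a (0.251 against 1.10) were lower. All other means of these markers were above spleen. Summed over 7 macrophage markers, levels were 10.1 to 16.3 CPM for bone, 3.97 to 14.7 for muscle, 3.04 to 15.2 for skin and 4.8 to 55.0 for heart, against 21.1 to 36.6 CPM for spleen, with 2 of the 7 lower in bone and in skin, 3 in muscle and 0 in heart.

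Markers of the structural cells of the tissues and of neutrophils were also present in part. Summed over 5 fibroblast markers, levels were 14.8 to 48.0 CPM for bone, 1.96 to 42.3 for muscle, 9.81 to 105 for skin and 5.64 to 8.57 for heart, against 0 to 11.4 CPM for spleen. Col1a1 passed as higher in bone and Dcn in muscle. Dcn had a median of 0 CPM and a highest value of 9.34 CPM in muscle, so a single library carried that call. Summed over 5 markers of skeletal and heart muscle, levels were 0.239 to 4.77 CPM for bone, 2.1 to 55.3 for muscle, 0.338 to 1.27 for skin and 0.707 to 4.64 for heart, against 0 to 3.16 CPM for spleen. Myh4, a myosin of fast muscle fibres, had 0.252 to 43.7 CPM in muscle and 0 counts in spleen. The 3 keratinocyte markers summed to 1.48 to 6.63 CPM in skin, against 0.736 to 1.23 CPM in spleen, and at most 1.32 CPM in the other tissues. The 5 neutrophil markers summed to 0.564 to 27.7 CPM in heart, against 1.14 to 24.3 CPM in spleen, and to at most 2.62 CPM in the other tissues. The 3 endothelial markers, nearly all from Pecam1, summed to 59.1 to 131 CPM in injured tissues, against 129 to 164 CPM in spleen. The bone markers Bglap, Sp7 and Ibsp had 0 counts in every library. Whether these transcripts came from Tregs or from other cells, and their part in the receptor results, was not tested.

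Set side by side per exon length, the order of the chains differed between injured tissue and spleen. In skin Il2ra stood first at 299 ± 31 CPM per kb, then Il2rg at 232 ± 12, Il2rb at 210 ± 18 and Il7r at 194 ± 32 (SD, n = 3), and in heart Il2ra also stood first at 250 ± 45. In bone Il2ra (178 ± 22), Il2rg (176 ± 17), Il2rb (168 ± 13) and Il7r (163 ± 19) lay within 1 SD of one another. In muscle Il2rg (216 ± 32), Il2ra (191 ± 51) and Il2rb (182 ± 17) likewise overlapped, with Il7r lower at 106 ± 20 CPM per kb. In spleen, by contrast, Il2rb was highest at 154 ± 24 CPM per kb, followed by Il2rg at 140 ± 19, Il2ra at 105 ± 3.9, Il21r at 60.0 ± 3.9, Il7r at 54.0 ± 13 and Il4ra at 33.2 ± 6.2 (SD, n = 6). Il9r at 3.17 ± 0.75 and Il15ra at 2.66 ± 0.59 CPM per kb came last. The gaps between Il2rb and Il2rg and between Il21r and Il7r in spleen were within 1 SD. Il21r exceeded Il4ra per length in every group. If the counting dropped reads shared with Gm20489, which covers 728 of the 2387 exon bases of Il2rg, the Il2rg levels per length are too low. The place of Il2rg in each order is therefore not settled.

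**Figure D4:**
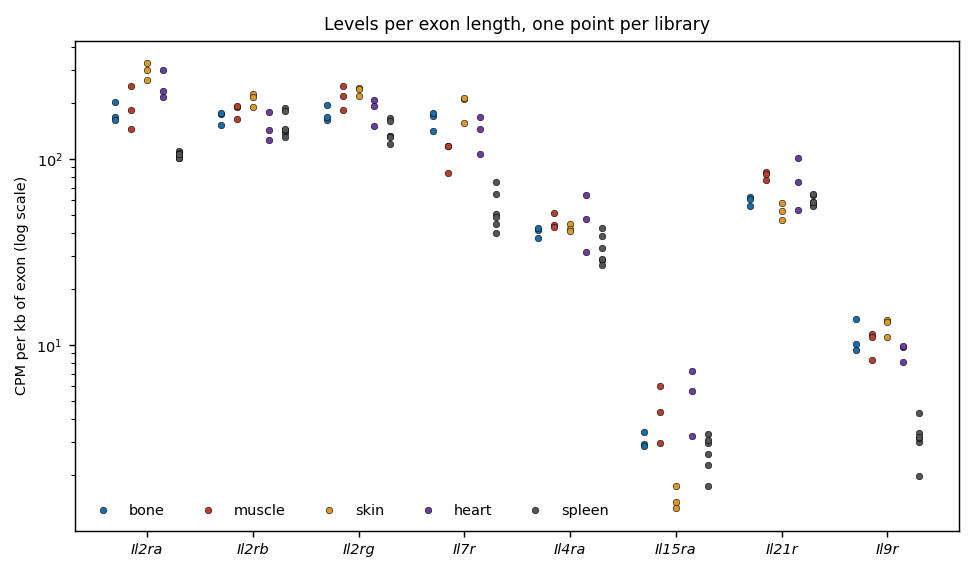
CPM per kb of exon for each receptor gene and library on a log scale. In spleen Il2ra, Il2rg and Il2rb average 105, 140 and 154 CPM per kb, and Il9r and Il15ra lie below all other members in every group.

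The next question was whether the injured tissues differed from one another. Levels of Il2ra ran from skin (1707 ± 177 CPM) through heart (1426 ± 256) and muscle (1092 ± 288) to bone (1017 ± 127, SD, n = 3 each), and no neighbours in that order passed the test. Levels of Il7r ran from skin (903 ± 149 CPM) through bone (758 ± 90) and heart (653 ± 145) to muscle (495 ± 91), and again no neighbours passed. Levels of Il9r ran from skin (62.5 ± 7.0 CPM) through bone (54.8 ± 12) and muscle (50.9 ± 8.5) to heart (45.7 ± 5.1), with no pair of tissues past the test.

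Of the 8 genes, 1 passed between muscle and bone, 1 between skin and muscle and 2 between heart and skin, where 4.86%, 1.31% and 2.38% of all genes tested passed in that order. Il21r was higher in muscle than in bone (log2 fold change 0.46 ± 0.12, adjusted p = 0.035), Il7r was higher in skin than in muscle (1.18 ± 0.27, 0.032), and Il15ra (1.65 ± 0.34, 0.0063) and Il21r (0.67 ± 0.18, 0.042) were higher in heart than in skin, all by edgeR's quasi-likelihood test. Heart and skin libraries did not overlap for Il15ra but did for Il21r. Each of the 4 was lost under at least 1 alternative. Il21r in muscle against bone was lost without any 1 bone library (0.063 to 0.15), muscle 1 (0.08) or muscle 2 (0.1), without the style term (0.058), with no filter on low counts (0.098) and with all 18 libraries in one fit (0.12). Il7r in skin against muscle was lost without muscle 1 (0.054), skin 2 (0.081), skin 3 (0.066), spleen 2 (0.058), spleen 4 (0.06) or spleen 5 (0.074), without spleen 1 and 2 together (0.12), with limma-voom (0.075) and with all 18 libraries in one fit (0.065). Il15ra in heart against skin was lost without heart 1 (0.18) and with limma-voom (0.076). Il21r in heart against skin was lost without the style term (0.064), with limma-voom (0.076), and without heart 1 (0.64), any 1 skin library (0.06 to 0.18), heart 2 (0.08), any 1 bone library (0.052 to 0.055), muscle 2 (0.051), muscle 3 (0.052), spleen 3 (0.05) or spleen 5 (0.062).

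None of the 8 passed between skin and bone, heart and bone or heart and muscle by edgeR, where 8.11%, 6.68% and 0.452% of all genes did. At an unadjusted p under 0.05 there were 2, 2 and 4 in that order. Of all genes tested, 3599 of 15617, 3567 of 15926 and 1551 of 15926 had such a p. DESeq2 called 1, 2 and 0 of the 8. Over all genes it called 1057 as higher and 724 as lower of 13193, 985 and 645 of 15606, and 152 and 59 of 15911. With limma-voom the 8 gave 0 in each, and all genes gave 497 and 350, 596 and 408, and 54 and 11. Il2ra came nearest in skin against bone (log2 fold change 0.71 ± 0.23, adjusted p = 0.054), and it passed under 10 alternatives, among them no style term (0.0042), DESeq2 (0.014) and leaving out bone 1 (0.042), muscle 1 (0.019), muscle 2 (0.026) or skin 1 (0.044). Muscle against bone for Il7r had no overlap and the lower values in muscle (-0.61 ± 0.19, adjusted p = 0.067), and it passed under 5 alternatives, among them leaving out spleen 4 (0.049) or spleen 6 (0.027). Il7r also passed in skin against bone without spleen 6 (0.041), and Il15ra in heart against bone without heart 3 (0.013). Bone and muscle share no style with skin, so comparing them with skin also rests on how the 2 styles of spleen library differed.

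Downstream of the receptors, the kinase Jak3, which binds the common gamma chain, and Stat3 were higher in all 4 tissues, as was Stat5a. Of the 8 kinase and STAT genes reported, 4 passed as higher in bone Tregs, 5 in muscle, 5 in skin and 4 in heart. Over all genes tested, 8.48%, 14.2%, 15% and 11.8% passed as higher in that order. Jak3 averaged 273 CPM in bone Tregs, 314 in muscle, 364 in skin and 298 in heart, against 157 CPM in spleen, with log2 fold changes of 0.70 ± 0.14, 0.90 ± 0.14, 1.28 ± 0.14 and 0.91 ± 0.14 (adjusted p at most 0.00091, edgeR's quasi-likelihood test). Stat3 changed by 0.88 ± 0.13, 1.17 ± 0.13, 1.40 ± 0.13 and 1.33 ± 0.17 in the same order. Stat5a rose by 0.53 ± 0.15 in bone Tregs, 0.41 ± 0.15 in muscle, 0.77 ± 0.15 in skin and 0.87 ± 0.16 in heart. Jak2, a kinase of other cytokine receptors, passed in muscle (1.10 ± 0.18), skin (1.56 ± 0.18) and heart (1.66 ± 0.31) and not in bone (0.50 ± 0.18, adjusted p = 0.062). Jak1, which binds the cytokine-specific chains, Stat5b and Stat6 passed in none of the 4.

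Genes that dampen these pathways moved in both directions. Of 7, 3 passed as higher and 1 as lower in bone Tregs, 2 and 3 in muscle, 4 and 2 in skin and 4 and 2 in heart. Over all genes tested the shares were 8.48% and 6.32%, 14.2% and 11.3%, 15% and 12.8%, and 11.8% and 8.46%. Cish, a STAT5-induced inhibitor, averaged 238 CPM in bone Tregs, 251 in muscle, 335 in skin and 308 in heart, against 135 CPM in spleen (log2 fold changes 0.88 ± 0.16, 0.96 ± 0.16, 1.20 ± 0.16 and 1.21 ± 0.17). Socs2, of the same family, rose in all 4 tissues, by 1.11 ± 0.20 in bone Tregs, 1.70 ± 0.21 in muscle, 0.85 ± 0.21 in skin and 1.88 ± 0.20 in heart on the log2 scale. Ptpn6, the phosphatase SHP-1, fell in all 4, to 85.9 CPM in bone Tregs, 71.7 in muscle, 66.9 in skin and 63.6 in heart, against 130 CPM in spleen. Sh2b3, the adaptor LNK, fell in muscle, skin and heart (log2 fold changes -1.04 ± 0.17, -1.28 ± 0.18 and -1.07 ± 0.16) and not in bone (0.001 ± 0.167).

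Of 13 genes known as IL-2 or STAT5 targets in T cells, 4 passed as higher and 3 as lower in bone Tregs. The counts were 5 and 6 in muscle, 6 and 4 in skin and 5 and 5 in heart. Over all genes tested the shares were 8.48% and 6.32%, 14.2% and 11.3%, 15% and 12.8%, and 11.8% and 8.46%. Gzmb, the protease granzyme B, Tnfrsf9, the costimulatory receptor 4-1BB, the effector factor Prdm1 and Foxp3 rose in all 4. Gzmb averaged 293 CPM in bone Tregs, 492 in muscle, 938 in skin and 232 in heart, against 13.4 CPM in spleen. Bcl2, the survival gene, fell in all 4, to 86.1 CPM in bone Tregs, 15.8 in muscle, 5.38 in skin and 48.8 in heart, against 230 CPM in spleen. Lta, encoding lymphotoxin alpha, fell in all 4 as well (log2 fold changes from -2.18 in skin to -1.68 in muscle), and Myc fell in bone, muscle and heart but not in skin (-0.21 ± 0.16, adjusted p = 0.35). The list's median log2 fold change was -0.19 in bone Tregs, -0.35 in muscle, -0.001 in skin and -0.28 in heart. Over all genes it was 0.01, -0.01, -0.065 and -0.03 in that order. Of 6 genes known as IL-4 or STAT6 targets, 6 passed as higher in bone and 5 in each other tissue, among them Gata3, Nfil3, Maf, Ccr4 and Ccr8 in all 4. The remaining one, Socs1, was higher in bone (0.67 ± 0.22, adjusted p = 0.04, edgeR's quasi-likelihood test) and lower in muscle (-0.60 ± 0.22, 0.049). Both target lists were chosen with earlier results of these data known, so their counts only describe the listed genes. Whether IL-2 or IL-4 signalling differed was not tested.

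**Figure D5:**
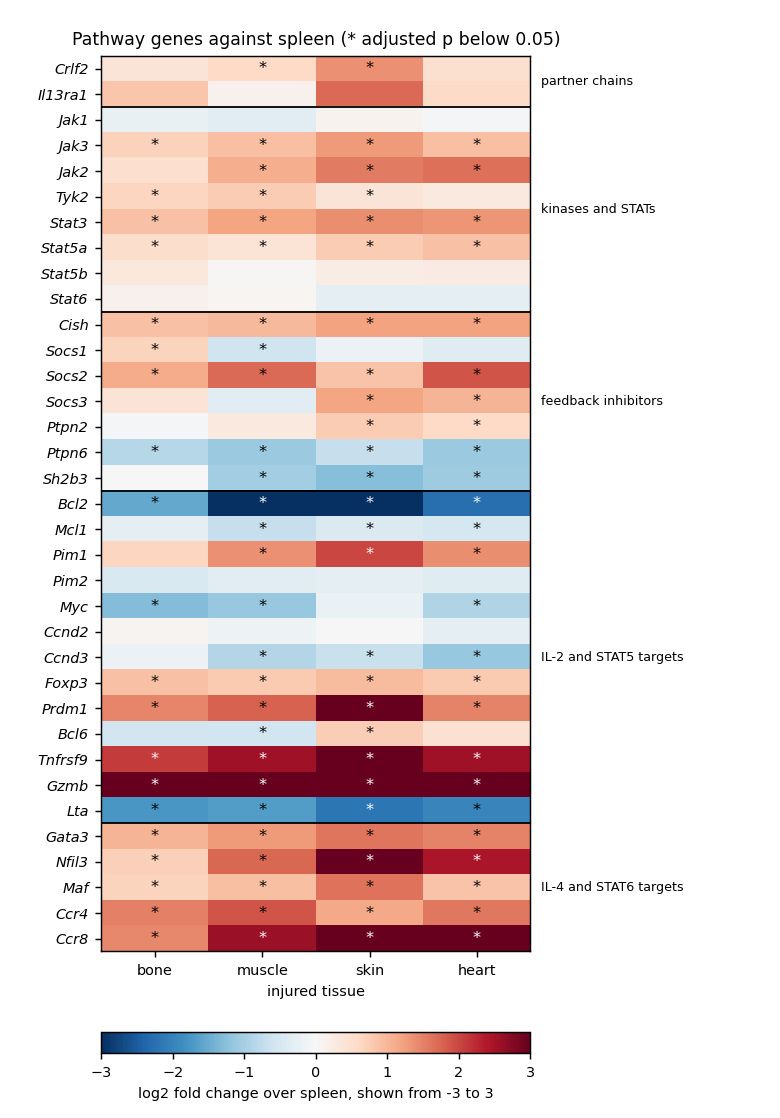
Log2 fold change over spleen of the pathway genes by list (partner chains, kinases and STATs, feedback inhibitors, targets) in each injured tissue, with asterisks where adjusted p was below 0.05. The rows of Jak3, Stat3, Cish, Socs2, Gzmb, Tnfrsf9, Prdm1 and Ccr8 are red and those of Bcl2, Lta and Ptpn6 blue in all 4 columns.

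Transcripts of the cytokines themselves were scarce. Il9 and Tslp had 0 counts in all 18 libraries, and the 7 cytokine genes together summed to 1.88 to 2.62 CPM for bone, 4.0 to 5.05 for muscle, 3.05 to 3.41 for skin and 2.83 to 3.3 for heart, against 1.9 to 9.23 CPM in spleen. Il2 averaged 0.498 CPM in bone Tregs, 1.51 in muscle, 1.57 in skin and 2.25 in heart, against 1.65 CPM in spleen, and passed in none. Il21 passed as lower in muscle, with 0 counts in its 3 libraries against 0 to 5.29 CPM in spleen (adjusted p = 0.02, edgeR's quasi-likelihood test). The groups overlapped, and the spleen median was 0.501 CPM. That is near what a count of 0 allows in the spleen libraries (0.194 to 0.519 CPM).

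The genomic neighbours of the receptors were set beside them. Of 46 other protein-coding genes within 200 kb of a member 31 were tested. Of these, 4 passed as higher in bone Tregs, 5 in muscle, 2 in skin and 3 in heart. The shares over all genes tested were 8.48%, 14.2%, 15% and 11.8% as higher in that order. As lower they were 6.32%, 11.3%, 12.8% and 8.46%. One neighbour was lower in every tissue, Nsg2 beside Il9r, which fell to 23.7 CPM in bone Tregs, 6.34 in muscle, 11.7 in skin and 17.0 in heart, against 142 CPM in spleen. Near Il2ra, Ankrd16 was higher in bone (log2 fold change 0.74 ± 0.22), muscle (0.89 ± 0.23) and heart (0.78 ± 0.23). Near Il2rb, Kctd17 rose in bone, muscle and heart and C1qtnf6 in muscle and skin, while Il2rb itself passed in none.

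Among 8519 expressed genes, those whose log2 level followed each receptor most closely over the 18 libraries were named by Pearson's r, as a description of libraries that share group, style and depth. Il2ra was followed by Arl5a (r = 0.972) and Tmem123 (0.97), Il9r by Sec24d (0.962), a coat protein of vesicles, and Mmp25 (0.961), a membrane metalloprotease. Il7r was followed by Kctd12 (0.938) and Foxp3 (0.927), and Il2rg by Lpcat1 (0.944) and Sh3bgrl3 (0.937). The nearest genes of Il2rb were Pglyrp1 (0.911) and Stim1 (0.892), those of Il4ra Sidt2 (0.9) and Napa (0.88). Il15ra and Il21r had the least close partners, Gtf2ird1 (0.896) and Trim39 (0.884) for Il15ra and Gfod1 (0.863) and H2-Q4 (0.85) for Il21r.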

How the data were processed

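Bulk RNA was sequenced from sorted Tregs, 18 libraries in all. Per the labels, libraries were made from 1 ng of total RNA with the Ovation Solo kit. The authors deposited raw counts per gene in 2 tables whose 6 spleen columns are identical. The submitters' processing notes name GRCm38, STAR, featureCounts and limma. Not given in the sources used here: versions, annotation, strand setting, and how multi-mapping reads and molecular identifiers were handled. GENCODE M21 entries matched 45143 of the 46078 gene IDs and gave positions and exon lengths. Promoters came from RefSeq.

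Genes were filtered with filterByExpr, scaled by TMM and tested with edgeR 4.0.16 (robust glmQLFit, glmQLFTest, R 4.3.3) on group plus naming style, adjusted over all genes tested (15617 in the first table, 15025 in the heart table, 15926 over all 18 libraries, used for heart against other tissues). Standard errors come from the F statistic. Ratios were tested with scipy 1.17.1. Alternatives used DESeq2 1.42.0, limma-voom (limma 3.58.1), other scalings, filters and library sets. Replicate libraries of a group differed by more than counting noise, so none was merged, and p-values measure the spread between these libraries.

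The 8 genes and all lists were chosen with earlier results of these data known. All 8 were described throughout. From each list the text names at most 4 genes with the largest mean absolute change plus those of opposite direction, for each member the 2 most alike genes (mean log2 CPM of at least 3, log2(CPM + 1) scale), and neighbours within 200 kb. The further list genes named were chosen after their values were seen. Another gene of the kinase and STAT list is not reported here, so counts over that list are incomplete.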

Additional observations from a re-analysis of the deposited data

How the results depend on the processing

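The 8 genes in 10 comparisons gave 80 tests, of which 25 passed. Of those, 13 kept their call under every alternative (Il2ra, Il7r and Il9r in all 4 tissues against spleen, and Il2rg in skin), 12 lost it at least once, and 15 of the other 55 gained one. No called value turned direction. The count of receptor genes that passed moved by over 1.5 times, or from or to 0, as follows, and the cause was not tested. Without the style term it was 3 in bone, 0 in muscle against bone, 2 in skin against bone, 4 in skin against muscle and 1 in heart against skin. Using libraries of 1 naming style only gave 3 in heart against spleen and, chosen after seeing the data, 2 in muscle against bone and 1 in heart against bone. DESeq2 gave 2 in muscle against bone, 1 in skin against bone, 2 in skin against muscle and 2 in heart against bone, and limma-voom gave 0 in skin against muscle and 0 in heart against skin. Skin against bone had 1 under RLE scaling, with no filter on low counts, with ribosomal and small RNA genes left out and with all 18 libraries in one fit. That single fit gave 0 in muscle against bone and 0 in skin against muscle, and leaving out spleen 1 and 2 gave 0 in skin against muscle.

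Leaving out 1 library at a time gave 3 to 5 genes in bone, 5 to 7 in muscle, 4 in skin and 3 to 7 in heart against spleen. Between tissues it gave 0 to 2 in muscle against bone, 0 to 1 in skin against bone, 0 to 1 in skin against muscle, 0 to 1 in heart against bone, 0 in heart against muscle and 0 to 2 in heart against skin. Of the ratios, 2 of 4 passed in each tissue, and 0 in each when any 1 library was left out or with libraries of 1 style only, where the smallest p these sizes allow cannot pass after adjustment. Adding 1 count to both genes changed no ratio call.

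With the replicate number as a block in place of the style, 4 genes passed in muscle, 4 in skin and 4 in heart against spleen, 4 in skin against muscle and 1 in heart against skin. Spleen 4 to 6 share no number with another group, so each formed a block of its own and added nothing to the difference. Tregs-style muscle and heart 2 and 3 were thus set against Endo-style spleen 1 to 3, with no style term. Whether the block or this change of spleen libraries moved the calls was not tested. The calls not passed with the block were Il2rg (adjusted p = 0.098), Il4ra (0.2) and Il21r (0.094) in muscle and Il2rg (0.44) and Il4ra (0.31) in heart against spleen, and Il21r in heart against skin (0.15). Il15ra in muscle against spleen passed with it. Deviations of libraries with the same replicate number in the labels correlated between -0.125 and 0.158 over all genes, which shows no broad pairing by that number. Taken from means of so few libraries, these deviations cannot exclude a shared effect on some genes. Library names number muscle, heart 2 and 3 and spleen 4 to 6 differently from the labels. Pairing by the numbers in the names was not checked. No block was fitted for bone, where the labels do not match 2 columns to a replicate. Il15ra, with the lowest levels per length, is where depth limits the values most.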
